A study of Mus musculus with 24 samples.

Results

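The 12 libraries from mice labelled APP/PS+ (APP below), of 24 in the series, carried names of 2 lengths, and the 8 with short names were compared with the 4 with long names. Short names end in at most 2 digits and long names in 4. Libraries were assigned to the sets by genotype label and name. The short-named set held 4 males (APP males 1 to 4) and 4 females (APP females 3 to 6). The long-named set held 2 males (APP males 5 and 6) and 2 females (APP females 1 and 2). All were 9 to 11 months old and carried the APP/PS1 transgenes, a model of familial Alzheimer's disease that deposits amyloid in the brain. Messenger RNA came from brain vessels isolated on CD31 beads, CD31 being a protein on the surface of the endothelium. The labels used here say neither what the names stand for nor which strain, litter, day or batch a mouse came from, so the 2 sets are called by their name style only. WT mice served for values beside the comparison: their 6 male libraries all had short names and their 6 female libraries all had long names, so that sex and name style cannot be told apart among them.

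A brain vessel preparation holds endothelial cells, which form the blood-brain barrier with their transporters and tight junctions, and the cells attached to them: pericytes and smooth muscle cells on the outer wall, astrocyte endfeet, and microglia nearby. Vessel cells also run a circadian clock, a feedback loop in which the BMAL1 and CLOCK proteins switch on Per, Cry, Nr1d, Dbp and Tef genes through a DNA element called the E-box, and the products of several of these genes act back on the loop. Genes that lie near each other on a chromosome are inherited together, and inbred strains differ in the sequence and copy number of some of them, which is why the positions of the differing genes were counted as well.

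Values are CPM, reads scaled to a common library size (counts per M reads), and differences are short minus long on the log2(CPM + 1) scale, which understates changes of low genes. The APP libraries held 56.24 to 75.93 M reads, with a floor of 3 reads at 0.0395 to 0.0533 CPM (counting error only). A gene was called at a Benjamini-Hochberg adjusted p under 0.05 over 13736 genes with limma, sex being a term of the fit. The 16 endothelial markers gave 0 calls between the name styles by limma, and their summed level was 18300 to 26900 CPM in the APP libraries. Among the 9 sex-linked genes 0 were called. Over all genes 4.88% were called, so 0 calls in lists this small is near that share. App, which encodes the amyloid precursor protein, ranged from 2033 to 2697 CPM in the short-named and from 2111 to 2855 in the long-named libraries (adjusted p = 0.455). The prion protein gene Prnp gave 0.07 (adjusted p = 0.843), and neither gene passed the test. In bulk vessels, fewer cells of a type and less RNA per cell cannot be told apart.

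With the sexes averaged, 241 genes (1.75%) were higher and 430 (3.13%) lower in the short-named libraries, 671 in all (4.88%). The median difference of all genes was -0.07. In all 671 the sign was the same in males and in females, and in 430 of them (64.1%) the 8 short-named values did not overlap the 4 long-named ones. Over all genes, such separation was seen with the short-named libraries higher in 196 (1.43%) and lower in 406 (2.96%). A large difference, which means called and at least 1 on the log2 scale, was found for 93 genes (0.677%). The balance of directions rested on the scaling: with TMM factors in place of library totals, 304 genes were higher and 279 lower. Without the 4 short-named males, a setting chosen after the data were seen, 29 were higher and 44 lower. Only the females then hold both name styles, so that difference is the difference in females. Of 61 called genes taken by the naming rule given under the processing, 23 remained called in that setting. Some of the 61 are not reported below, and the called clock genes Dbp, Nr1d2, Cry1 and Npas2 are not among them. Over all of up to 21 alternatives 17 of the 61 remained called, and all 61 kept their direction. The fit that held the clock score alone kept 17, and that score itself differs between the name styles, as given below. With edgeR, DESeq2, TMM scaling, a pseudocount of 0.25, all 24 libraries or the brain cell score, 54 to 61 remained called. At a mean of at least 5 CPM, 52 were tested and all 52 remained called. Calls of some genes also ended without 1 library, as given below.

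The largest rise was that of Gbp2b, a guanylate-binding protein of the interferon-inducible family (chromosome 3, 142594847 to 142619179, mm10). It was at 48.6, 73.1, 39.3 and 54.7 CPM in the short-named males and at 99.8, 138, 108 and 115 in the short-named females. The long-named males had 0.0301 and 0.123 CPM and the long-named females 0.225 and 0.178. The sets were apart in both sexes, with a difference of 6.11 (SE 0.19, adjusted p = 2.59e-09). WT males, at 29.9 to 46.1 CPM, lay with the short-named set, and 5 of the 6 WT females lay with the long-named set, while WT female 3 stood at 226 CPM.

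Ifi44l, an interferon-inducible gene (chromosome 3, 151758737 to 151762892), showed the same separation at a lower level. The short-named libraries had 3.67 to 26.4 CPM with a median of 12, and the long-named ones 0, 0, 0 and 0.0178 (difference 3.60, SE 0.32, adjusted p = 7.27e-05). WT males lay between them, at 0.857 to 1.82 CPM. Dsp encodes the desmosome protein desmoplakin (chromosome 13, 38151294 to 38198577). Its short-named values ran from 49.2 to 109 CPM, with a median of 69.7, and its long-named ones were 5.98, 7.52, 10.9 and 9.41 (difference 2.96, SE 0.2, adjusted p = 4.28e-06). Calr3, a calreticulin family chaperone best known from testis, was at 3.93 to 7.35 CPM against 0.57 to 0.729 (difference 1.95, SE 0.14). The groups did not overlap for any of the 4 genes.

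Other large rises were those of the ephrin ligand gene Efna2 (5.95 to 13.1 against 1.28 to 3.2 CPM; difference 1.75, adjusted p = 0.00092), Tlcd2 (7.72 to 14.7 against 1.45 to 7.09; 1.74, adjusted p = 0.00278) and the transcript AA465934 (9.63 to 14.3 against 0.711 to 6.7; 1.77, adjusted p = 0.0166). In Tlcd2 the long-named female 2 stood near the short-named libraries, at 7.09 CPM, and in AA465934 the long-named libraries were split, with 1.34 and 0.711 CPM in male 5 and female 2 and 6.7 and 6.22 in the other two. Pianp, a ligand of an inhibitory immune receptor, was high in the short-named males (31.5 to 44.7 CPM) and scattered in the short-named females (7.53, 17.6, 3.29 and 22), where it overlapped the long-named values of 1.52 to 5.03 (difference 2.21, adjusted p = 0.0326). The call of Pianp ended when any of APP males 1, 2, 4, 5 or 6 or APP females 4 or 6 was left out, and that of AA465934 when APP male 5 was.

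The largest fall was that of Pttg1, which encodes securin, an inhibitor of the separation of sister chromatids until anaphase (chromosome 11, 43420250 to 43426251). It was at 4.08, 3.5, 5.12 and 3.39 CPM in the short-named males and at 3.41, 3.81, 3.25 and 3.43 in the short-named females. The long-named males had 62.7 and 59.5 CPM and the long-named females 56.7 and 55.9. The fall of 3.66 (style difference -3.66, SE 0.09, adjusted p = 6.91e-10) was alike in males (-3.64) and in females (-3.68), and WT males lay between the sets at 25.2 to 35.4 CPM. Pttg1 was the only one of 10 cell cycle genes that was called, against 4.88% of all genes. Mki67 gave -0.34 (adjusted p = 0.449) and Top2a -0.43 (adjusted p = 0.155).

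Hpgd, which encodes the enzyme that inactivates prostaglandins (chromosome 8, 56294585 to 56321043), was at 1.41 to 3.33 CPM with a median of 1.62 in the short-named set. The long-named males had 42.3 and 40.8 CPM and the long-named females 21 and 17.8 (difference -3.37, SE 0.21, adjusted p = 3.03e-06). It was the 1 called gene of 16 in the prostaglandin list, against 4.88% of all genes. B3gnt3, a glycosyltransferase of the same chromosome, was at 2.92 to 6.4 against 22.2 to 38.5 CPM (difference -2.45, SE 0.16). Rps3a1, a ribosomal protein gene, was at 24.9 to 31.8 against 134 to 150 CPM (difference -2.30, SE 0.07, adjusted p = 1.79e-09), but it has near-identical copies elsewhere and its level is uncertain. None of these 3 genes overlapped between the sets.

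Prkar2b, a regulatory subunit of protein kinase A (chromosome 12, 31958476 to 32061296), was at 3.55 to 7.81 CPM with a median of 6.01 against 35.7, 23.4, 32.3 and 37.4 (difference -2.31, SE 0.14, adjusted p = 2.87e-06). Slfn8, of the Schlafen family, was at 1.5 to 4.36 against 8.44 to 23.6 CPM (-1.98, adjusted p = 0.000959). Mrc2, a collagen-binding endocytic receptor, was at 3.89 to 12.4 CPM in 7 of the short-named libraries and at 49.7 in APP female 3, against 37.1 to 84.9 (-2.56, adjusted p = 0.00516). Mrc2 thus overlapped between the sets through that 1 library.

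**Figure D1:**
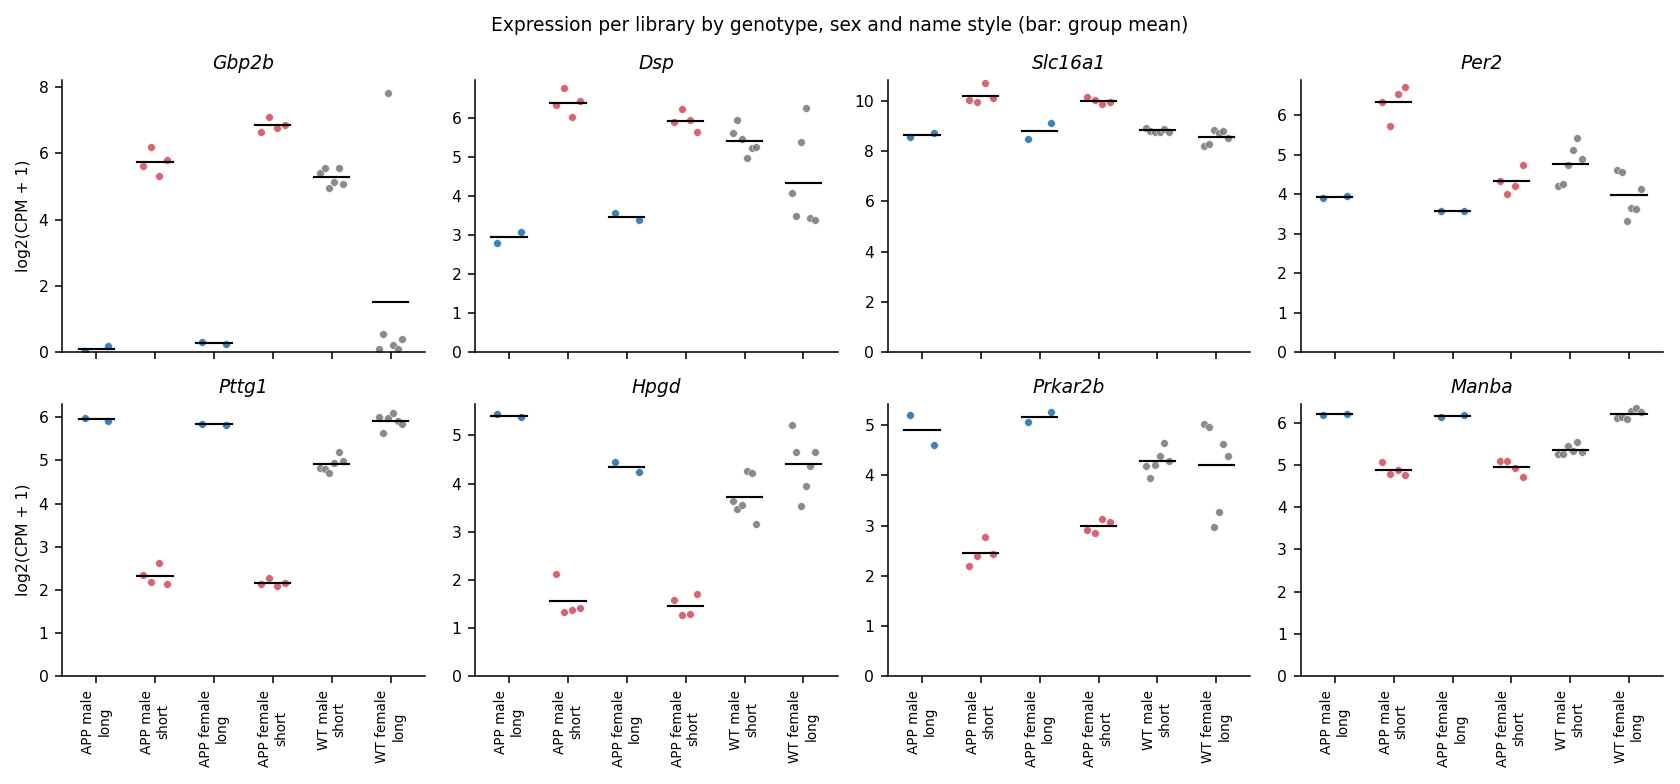
Each point is 1 library; the vertical axis is log2(CPM + 1), and columns are genotype, sex and name style (red: short-named APP, blue: long-named APP, grey: WT), with a bar at the group mean. The 8 short-named APP libraries lie on one side of the 4 long-named ones in all 8 genes, and WT males lie between the APP sets in Pttg1, Hpgd, Prkar2b and Manba.

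Of 19 blood-brain barrier transporters 2 were called, both higher, against 1.75% of all genes. Slc16a1, the lactate and ketone body transporter MCT1 (chromosome 3, 104638668 to 104658462), was at 1048, 994, 1651 and 1112 CPM in the short-named males and at 1123, 1037, 930 and 977 in the short-named females. The long-named libraries had 375, 417, 360 and 546 CPM (difference 1.38, SE 0.15, adjusted p = 0.000434), at the level of WT males (428 to 488) and WT females (293 to 457). Tfrc, the transferrin receptor that carries iron across the barrier, was at 411 to 678 against 240 to 437 CPM (0.70, adjusted p = 0.0119), with an overlap between short-named males and long-named females; its call ended without APP male 5. None of 14 junction genes was called by limma, against 4.88% of all genes, and the median of that list was -0.005.

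Hypoxia-responsive genes gave 3 calls of 15, all higher, against 1.75% of all genes, and the list median was 0.08. Ankrd37 was at 28.6 to 55.4 against 15.5 to 26.1 CPM (difference 0.98, adjusted p = 0.0101), the vasodilator peptide gene Adm at 19.6 to 34.9 against 13.4 to 19 (0.60, adjusted p = 0.0396) and the lactate dehydrogenase gene Ldha at 293 to 366 against 233 to 307 (0.31, adjusted p = 0.0435). The call of Adm ended when any of 7 single libraries was left out and that of Ldha when any of 10 was, APP males 5 and 6 among them for both. Immediate early genes, which respond within minutes to stimulation or to tissue handling, were likewise higher in 3 of 17 and lower in 0, with a list median of 0.32. Ier3 was at 572 to 993 against 377 to 540 CPM (0.79, adjusted p = 0.0106), and Jund at 988 to 1799.9 against 793 to 897 (0.68, adjusted p = 0.0166), both without overlap, while Ier2 gave 0.33 (adjusted p = 0.0457). The call of Jund ended without APP male 5 or 6, and that of Ier2 without any of 10 single libraries.

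Plaque-associated microglial genes were lower in 3 of 24 and higher in 0 (list median -0.49, against -0.07 for all genes). Of all genes, 3.13% were lower and 1.75% higher. Igf1, a growth factor gene that microglia switch on around plaques, was at 1.09 to 5.66 CPM with a median of 2.2 in the short-named set and at 11.5, 5.1, 16.1 and 11.3 in the long-named one (-1.63, SE 0.33, adjusted p = 0.0166). The lysozyme gene Lyz2 was at 44.1 to 127 against 138 to 213 CPM (-0.98, adjusted p = 0.0356) and the inhibitory receptor gene Lilrb4a at 8.02 to 32.5 against 27.1 to 52.8 (-1.13, adjusted p = 0.0427). Cst7 and Clec7a, which lead this microglial response, gave -1.14 and -0.90 and did not pass (adjusted p = 0.131 and 0.158). Homeostatic microglial markers gave 1 call of 13: Fcrl2 (also known as Fcrls) was at 67.4 to 288 against 237 to 606 CPM (-1.68, adjusted p = 0.0111). The call of Igf1 ended without APP male 5 or APP female 1, and those of Lyz2 and Lilrb4a also ended with edgeR and without any of 7 and 8 single libraries.

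Among 25 interferon response genes, Ifi44l was higher and 2 were lower, against 1.75% higher and 3.13% lower of all genes. Rsad2, which encodes the antiviral protein viperin, was at 33.4 to 80.7 against 87.1 to 107 CPM (-0.92, adjusted p = 0.0101). The tetherin gene Bst2 was at 55.7 to 120 against 117 to 138 (-0.55, adjusted p = 0.0332). Nlrc5, the activator of MHC class I genes and the only called gene of 17 in the antigen presentation list, gave -0.69 (adjusted p = 0.0405). Both Bst2 and Nlrc5 overlapped between the sets and lost their calls without any of 7 single libraries. Of 15 glucocorticoid-responsive genes 2 were lower and 0 higher, beside the same shares of all genes. Ddit4, an inhibitor of mTOR signalling, was at 109 to 237 against 231 to 266 CPM (-0.88, adjusted p = 0.0104). Tsc22d3, which encodes the anti-inflammatory protein GILZ, was at 162 to 463 against 390 to 568 CPM (-0.96, adjusted p = 0.0132). Lcn2, an iron-siderophore carrier, was at 3.77 to 12.1 against 12.6 to 38.7 CPM (-1.38, adjusted p = 0.03). It was the only called gene of 14 artery and vein markers (list median -0.11). Col3a1, a fibrillar collagen of vessel fibroblasts, was at 16.6 to 29.4 against 11.8 to 14.7 CPM (0.77, adjusted p = 0.019). It was the only called gene of 11 vessel fibroblast markers, of which 5 had a positive difference (list median -0.13). The calls of Lcn2 and Col3a1 ended without APP male 5, APP male 6 or APP female 1, and that of Lcn2 without APP female 2 as well.

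Clock genes were the list with the most calls. Of 17 measured, 7 were higher and 1 lower in the short-named libraries, against 1.75% higher and 3.13% lower of all genes. The list median was 0.45. Per2, a repressor of the loop, was at 79.5, 52.2, 92.9 and 104 CPM in the short-named males and at 19.2, 15, 17.6 and 25.8 in the short-named females. The long-named males had 14 and 14.5 CPM and the long-named females 10.8 and 10.9 (1.58, SE 0.29, adjusted p = 0.0111). The short-named males were thus above all other APP libraries, and the short-named females just above the long-named ones; the difference between the sexes itself passed (females less males -1.65, SE 0.35, adjusted p = 0.0365).

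The transcription factor genes Tef, Nr1d1 and Dbp were higher in the short-named set as well. Tef was at 148 to 299 CPM with a median of 180 against 94.8 to 125 (0.79, adjusted p = 0.00932). Nr1d1, which encodes the repressor REV-ERB alpha, was at 375 to 523 against 154 to 360 CPM (0.89, adjusted p = 0.011). Dbp was at 63.3, 34.9, 99.9 and 53.1 CPM in the short-named males and 45.8 to 62.5 in the short-named females, against 21.3, 6.9, 32.9 and 19.2 in the long-named set (1.56, adjusted p = 0.0233). Bhlhe40 gave 0.67 (adjusted p = 0.0161), Nr1d2 0.45 (adjusted p = 0.0353) and Cry1 0.47 (adjusted p = 0.0434). Npas2, a partner of BMAL1 that is expressed in antiphase to the Per genes, was lower (-0.70, adjusted p = 0.0296).

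More clock genes passed in the males than in the females, and so did more genes of the whole table. Over all genes, 3.17% were higher and 10.5% lower in the males, and 0.692% higher and 0.553% lower in the females. In males 9 of the 17 genes were higher and 2 lower (median 0.58), and in females 0 were higher and 1 was lower by limma, Per1, at 255 to 349 against 539 and 674 CPM (-0.94, adjusted p = 0.032). The difference between the sexes was called for Per2 and Ciart alone. Ciart, a repressor of the loop, had 63.2 to 112 CPM in the short-named males against 27 and 29.8 in the long-named males, and at 22.6 to 29.1 against 27 and 33.4 in the females (females less males -1.52, adjusted p = 0.027). Without the 4 short-named males the list gave 0 higher and 1 lower with a median of 0.14, again from the females. It gave 3 and 0 without APP male 5, 2 and 0 without APP male 6, and 4 and 0 without APP female 2. A fit that also held a score of the clock genes called 15 genes higher and 22 lower over the whole comparison. That score was 0.64 to 2.12 in the short-named males, -0.53 to 0.18 in the short-named females and -1.55 to -0.66 in the long-named libraries, so it differs between the name styles itself and takes up part of the comparison by construction.

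The promoters of 3 of these genes are shown because they hold CACGTG, the letters of the E-box. Whether the clock acts on them through these matches was not tested. Tef and Cry1 were called with the sexes averaged, and Ciart was not. Sequences are those of RefSeq (GRCm38.p6, the same build as mm10), from 250 bases before to 50 after the gene's start, 5′ to 3′ on the gene's strand; the capitals mark CACGTG, which reads the same on both strands.
Tef, chr15:81802423-81802722, plus strand: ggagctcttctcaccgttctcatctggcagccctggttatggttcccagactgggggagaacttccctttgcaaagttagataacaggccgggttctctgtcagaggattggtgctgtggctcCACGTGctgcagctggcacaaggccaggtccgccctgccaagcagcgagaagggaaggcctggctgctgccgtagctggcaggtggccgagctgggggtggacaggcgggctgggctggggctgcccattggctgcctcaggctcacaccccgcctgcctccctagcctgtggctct
Cry1, chr10:85185005-85185304, minus strand: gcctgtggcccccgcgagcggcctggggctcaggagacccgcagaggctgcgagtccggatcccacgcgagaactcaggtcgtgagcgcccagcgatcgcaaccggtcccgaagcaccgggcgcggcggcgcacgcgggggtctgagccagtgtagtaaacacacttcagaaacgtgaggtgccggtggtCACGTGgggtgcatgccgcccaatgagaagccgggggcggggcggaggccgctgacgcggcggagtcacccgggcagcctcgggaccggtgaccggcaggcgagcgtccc
Ciart, chr3:95882179-95882478, minus strand: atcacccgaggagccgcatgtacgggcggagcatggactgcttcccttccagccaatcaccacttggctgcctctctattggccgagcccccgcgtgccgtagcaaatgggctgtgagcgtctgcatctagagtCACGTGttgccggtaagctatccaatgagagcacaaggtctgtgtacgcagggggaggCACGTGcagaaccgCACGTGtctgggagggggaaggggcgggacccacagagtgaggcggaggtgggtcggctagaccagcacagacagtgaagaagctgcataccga
In the sequences shown, the motif was present once in Tef and Cry1 and at 3 places in Ciart; a second RefSeq start of Tef, not shown, held it once too. Of the 15 clock genes with an entry 5 held it, the other two being Bhlhe41 and Per1, and 6 of their 20 entries did (30%), against 7.15% of all 32851 entries of that length. The D-box TTATGNAA, searched on both strands, was in 2 of the 20 entries (10%), those of Per3 and Per1, against 3.38% of all. Dbp, Nr1d1, Nr1d2 and Npas2 were among the called genes without CACGTG in this window, which says nothing about E-boxes elsewhere. The called genes Per2 and Bhlhe40 had no entry.

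Within each sex the comparison gave different numbers of genes. In males, 4 short-named against 2 long-named, 436 genes (3.17%) were higher and 1446 (10.5%) lower; with TMM factors they were 723 and 607, and the median of all genes moved from -0.15 to -0.03. In females, 4 against 2, 95 genes (0.692%) were higher and 76 (0.553%) lower. Of the genes called in females, 110 were also called in males (64.3% of the female and 5.84% of the male calls), and 75 of the 110 had the same sign. The difference between the sexes was called for 320 genes, of which it was positive (higher in females than in males) in 269 (1.96%) and negative in 51 (0.371%). In 303 of the 320 the signs were opposite in the sexes, and in 217 the short-named males were called lower. These 320 calls rested on single libraries: without APP female 2 there were 0 by limma (1787 genes at an unadjusted p under 0.05), and without APP male 5 there were 10 and 2.

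**Figure D2:**
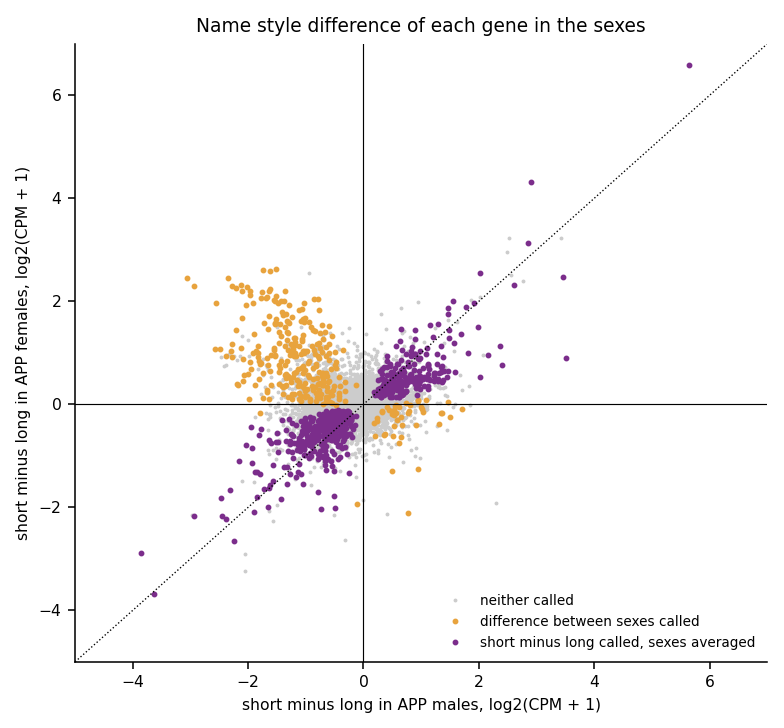
Each point is a gene; the axes are short minus long on the log2(CPM + 1) scale in APP males (horizontal) and in APP females (vertical), the dotted line marks equal values, and a gene called in both ways is drawn as called with the sexes averaged. The 671 genes called with the sexes averaged lie in the 2 quadrants of equal sign, and most of the genes whose difference between the sexes was called lie at upper left, lower in short-named males and higher in short-named females.

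Of the 5 genes with the smallest p for the difference between the sexes, 4 lay at upper left. Camkv, a neuronal kinase-like gene, was at 0.117, 0.047, 0.0483 and 0.334 CPM in the short-named males against 3.9 and 2.09 in the long-named males, and at 7.53, 7.82, 13.3 and 9.18 in the short-named females against 2.47 and 0.729 in the long-named females (females less males 3.85, adjusted p = 0.00787). The neuronal RNA-binding gene Elavl3 (3.22), the calcium sensor gene Ncald (2.76) and the GABA transporter gene Slc6a13 (2.57) had the same adjusted p and order. Sik1, a salt-inducible kinase, ran the other way: it ranged from 500 to 704 CPM in the short-named males against 423 and 398, and at 355 to 423 in the short-named females against 893 and 1018 (-1.79, SE 0.18, adjusted p = 0.00787). All 5 calls ended without APP female 2.

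Pericyte markers showed the same contrast, while endothelial markers did not. Of 14 pericyte markers 10 were lower in the short-named males (median -1.08), 0 were called in the females by limma (median 0.38), and the difference between the sexes was called in 8. Over all genes, 10.5% were lower in the males (median -0.15), and 0.692% were higher and 0.553% lower in the females. The difference between the sexes was called positive in 1.96% of all genes. The pericyte potassium channel gene Kcnj8 was at 2.39, 2.1, 2.4 and 2.07 CPM in the short-named males against 14.1 and 9.36 in the long-named males (-1.95, adjusted p = 0.00147), and at 8.2 to 16 in the short-named females against 7.42 and 5.33. Vtn, which encodes vitronectin, was at 34.2 to 81.2 against 277 and 175 CPM in the males (-1.97, adjusted p = 0.00463), and the receptor gene Pdgfrb at 39.4 to 62.6 against 142 and 89.8 (-1.14, adjusted p = 0.0128). The summed pericyte level was 397 to 557 CPM in the short-named males and 700 to 1200 in the other APP libraries, and 0 of the 14 markers were at 0 in any of them. Of 14 smooth muscle markers 4 were lower in males (1 with TMM factors) and 0 called in females by limma. The difference between the sexes was called in 1 of them and in 1 of 11 vessel fibroblast markers.

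Markers of brain tissue outside the vessel moved with them. Over all genes, 10.5% were called lower and 3.17% higher in the males, and 0.692% higher in the females. Of 13 astrocyte markers 5 were lower in the males (median -1.40) and 1 was higher in the females (median 0.62); S100b was at 2.52 to 6.21 against 26.8 and 15 CPM in males and at 25.8 to 47.1 against 13.8 and 8 in females. Of 10 oligodendrocyte markers 3 were lower in the males and 4 higher in the females, and the summed level of the list was 522 to 718 against 879 and 943 CPM in males and 2040 to 3510 against 746 and 967 in females. Of 8 neuron markers 5 were lower and 1 higher in the males and 3 higher in the females, with Map2 at 3.5 to 3.89 against 19.2 and 9.16 CPM and at 22 to 41.5 against 11.7 and 6.58. With the sexes averaged, only 2 of the astrocyte, oligodendrocyte and neuron markers were called, the neuronal genes Stmn2 (0.45, adjusted p = 0.0134) and Gad1 (-1.10, adjusted p = 0.0169), and both calls ended without APP male 5 or 6. Without APP male 5, 1 pericyte marker and 0 astrocyte, oligodendrocyte or neuron markers were called lower in the males by limma, and without APP female 2, 0 markers of those 3 brain lists were called higher in the females. The part of these cell types in the other differences was not tested. A score of the astrocyte, oligodendrocyte and neuron lists ran from -1.12 to -0.98 in the short-named males, from -0.33 to 0.45 in the long-named libraries and from 0.60 to 1.39 in the short-named females. A fit that held this score called 378 genes higher and 781 lower between the name styles.

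**Figure D3:**
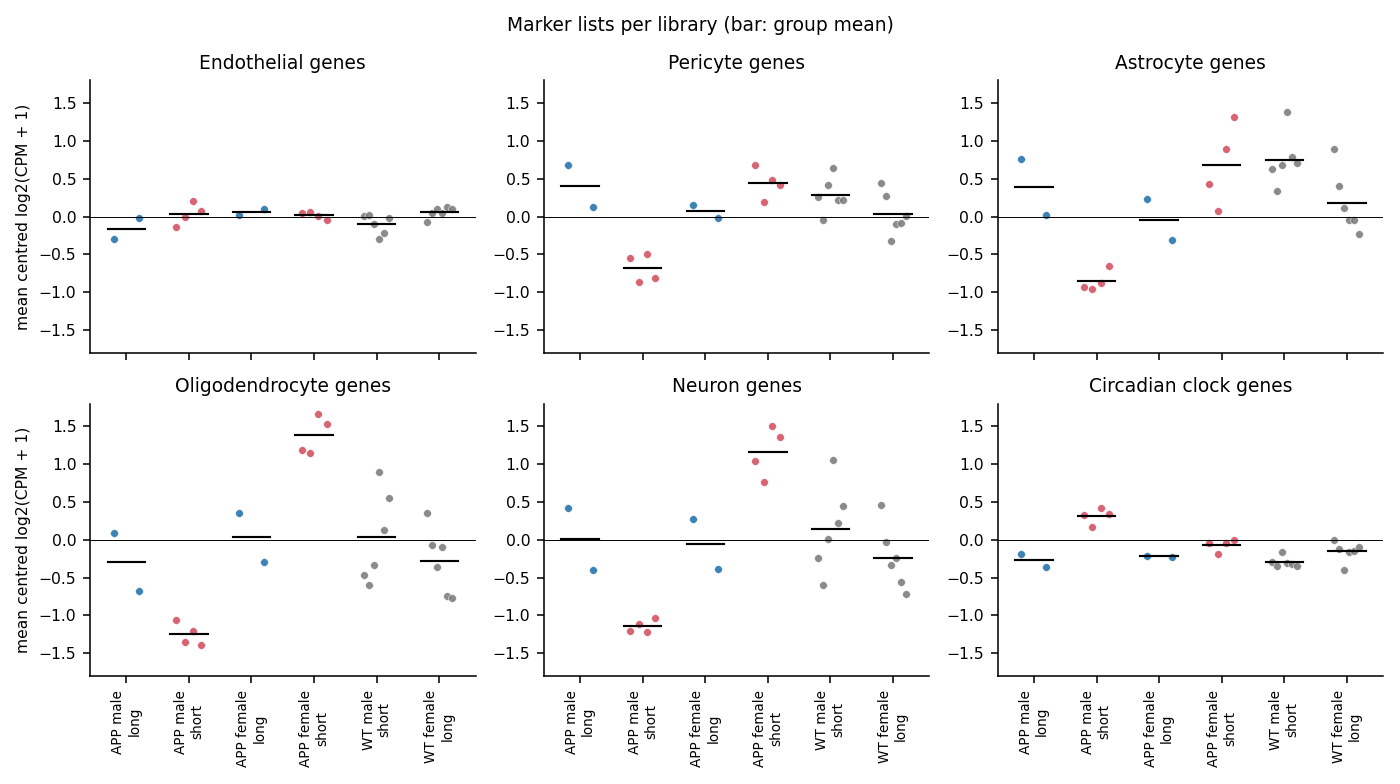
The vertical axis is the mean over a list's genes of log2(CPM + 1) less the gene's mean over the 12 APP libraries; points are libraries, colours are as in the plot of single genes, and bars are group means. The short-named APP males are lowest in the pericyte, astrocyte, oligodendrocyte and neuron lists and highest in the clock list, and endothelial genes stay within -0.30 to 0.20 in the APP libraries.

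The called genes were then placed on the mm10 genome. The share of tested genes called was highest on chromosome 12 (7.86%), chromosome 3 (7.64%) and chromosome 8 (7.4%), and large differences were most frequent on chromosome 3, with 12 of 641 genes (1.87%), and chromosome 8, with 10 of 716 (1.4%). Of 436 genes of the X chromosome 13 were called, and 0 of these differed by 1 or more. Some large differences had a large neighbour: 7 of 90 placed (7.78%) lay next to another, against 1.32% of all genes. Among them were Gm3883, Gm2163 and Spata31f1b on chromosome 4 and H2-Q1 and H2-Q2 on chromosome 17. These lie among near-identical gene copies, so their levels are uncertain. Of called genes, 13.3% had a called neighbour, against 9.29% of all genes. In windows of 10 Mb, 8 of 275 windows held 3 or more large differences and together held 29 of the 90 (32.2%), while 213 windows held 0. These counts are descriptions with no test.

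A window at 40 to 50 Mb of chromosome 4 held 5 large differences among 108 tested genes, all lower in the short-named set. Ccl27a, a chemokine gene (chromosome 4, 41769467 to 41774247), was at 0.246 to 0.782 against 4.3 to 7.28 CPM (-2.14, adjusted p = 1.04e-05). Its neighbours Gm2163 (0 to 0.152 against 2.06 to 2.33 CPM), Spata31f1b (0 to 0.152 against 1.45 to 2.37) and Gm3883 (0 to 0.264 against 1.15 to 1.69) followed it, and Glipr2 was lower by 1.03 (difference -1.03, adjusted p = 0.00639). All 5 were separated between the sets. This region of the mouse genome holds near-identical gene copies, so the levels of single genes there are uncertain.

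In windows on chromosomes 3 and 12 all called genes were lower. At 130 to 140 Mb of chromosome 3, 5 of 40 genes were called, all lower. Manba, which encodes the lysosomal enzyme beta-mannosidase (135485611 to 135571404), was at 32.7, 26.6, 28.5 and 26 CPM in the short-named males and at 32.9, 33, 29.1 and 25.2 in the short-named females, against 71.5, 73.2, 69.7 and 71.3 in the long-named set (-1.27, SE 0.08, adjusted p = 4.24e-06). It was the only called gene of 20 lysosomal enzymes, against 4.88% of all genes. The alcohol dehydrogenase gene Adh1 was at 3.43 to 6.74 CPM in 7 short-named libraries and at 15.6 in APP male 3, against 18.4 to 30.5 (-1.83, adjusted p = 0.00426). The Wnt inhibitor gene Dkk2 (-1.22, adjusted p = 0.0197), Ddit4l, a relative of Ddit4 (-1.20, adjusted p = 0.0111), and the ribosomal protein gene Rpl34, which has near-identical copies (-0.59, adjusted p = 0.0115), completed the window; the call of Dkk2 ended without any 1 of the 4 long-named libraries, and those of Ddit4l and Rpl34 without APP male 6.

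At 30 to 40 Mb of chromosome 12, 3 of 30 genes were called, Prkar2b, the phosphatase gene Acp1 and the syntrophin gene Sntg2. Acp1 (30893326 to 30911589) was at 3.66 to 6.91 CPM against 18.2, 16.9, 18 and 15.8 (-1.58, SE 0.12, adjusted p = 1.34e-05). Sntg2 (30174482 to 30373375) was at 0.0507 to 0.466 against 3.18 to 4.29 CPM (-1.99, adjusted p = 3.03e-06). WT females were split in all 3 genes in the same way. WT females 3 and 4 had 6.79 and 8.59 CPM of Prkar2b, 5.15 and 4.52 of Acp1 and 0.163 and 0.248 of Sntg2, at the level of the short-named APP libraries, and the other four had 20 to 31.7, 9.62 to 17.2 and 3.65 to 4.48 CPM.

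**Figure D4:**
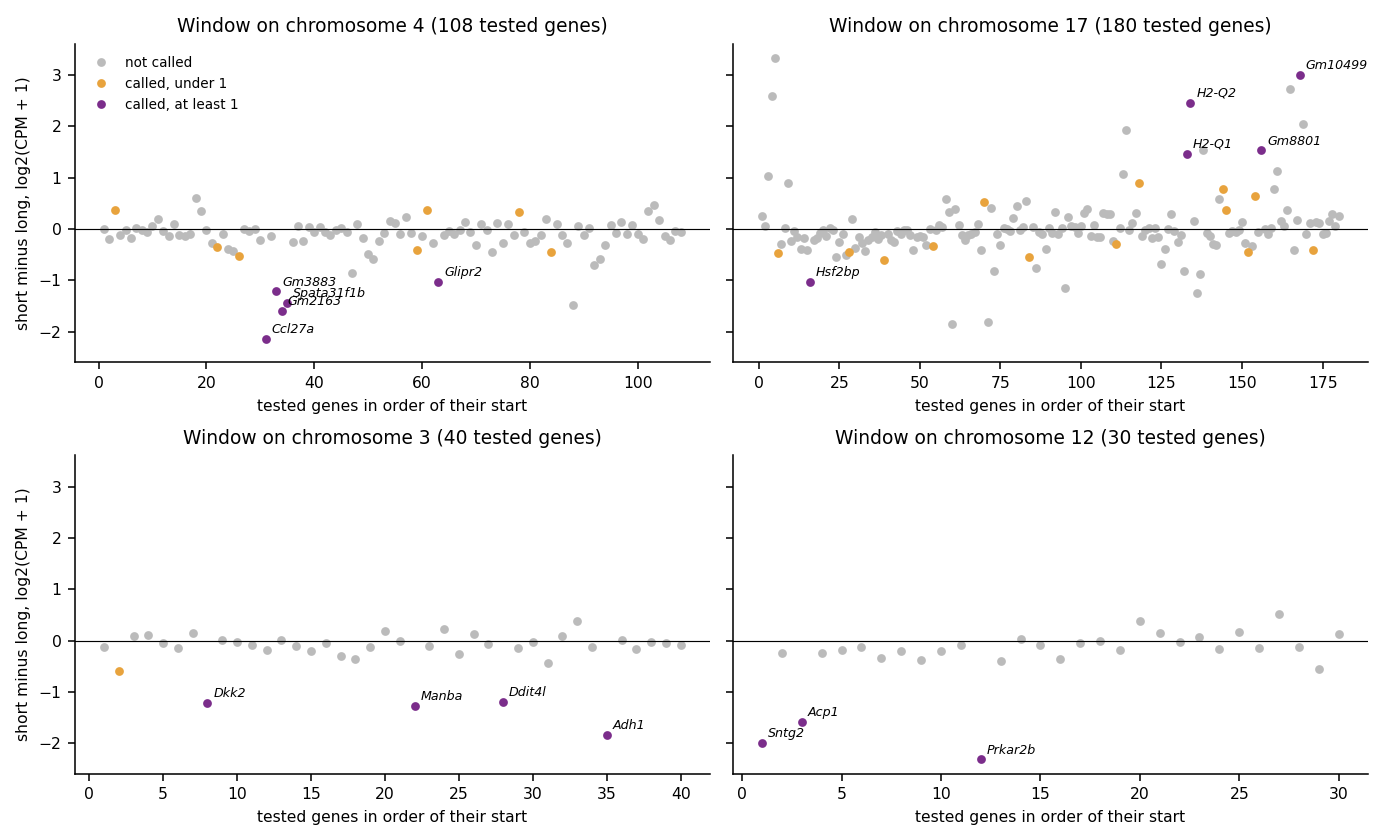
The 4 windows with the most large differences; the horizontal axis is the order of the tested genes along the window and the vertical axis short minus long on the log2(CPM + 1) scale, with called genes in colour. Called genes of at least 1 are all negative on chromosomes 4, 3 and 12, and 4 of 5 are positive on chromosome 17.

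The window at 30 to 40 Mb of chromosome 17, which holds the major histocompatibility complex, behaved otherwise. Of its 180 tested genes 18 were called (9 higher and 9 lower), and 5 of these differed by 1 or more: the class I genes H2-Q2 (2.46, adjusted p = 0.0494) and H2-Q1 (1.47, adjusted p = 0.0373), the gene models Gm10499 (adjusted p = 0.0366) and Gm8801 (1.53), and the meiosis gene Hsf2bp (-1.02, adjusted p = 0.00778). H2-T9, another class I gene of chromosome 17, gave 1.66 (adjusted p = 0.0451). Class I genes are a family of near-identical copies, so the level of each is uncertain. The class I genes and Gm10499 had adjusted p of 0.0366 to 0.0494, lost their calls without most single libraries, and were spread widely within the short-named set.

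Genes along the window divided the short-named libraries in the same way, APP male 2 and APP female 4 against the other six. Dnah8, a dynein heavy chain gene (30624354 to 30877365; named after its values were seen), was at 134, 87.5 and 163 CPM in short-named males 1, 3 and 4 and at 134, 138 and 128 in short-named females 3, 5 and 6. APP male 2 had 6.37 and APP female 4 had 4.78, the level of the long-named libraries (3.74, 5.99, 4.84 and 6.28). Glo1, a detoxifying glyoxalase that lies in a segment duplicated in some inbred strains (30584936 to 30626871), was at 79 to 129 CPM in those 6 libraries, at 31.8 and 38 in APP male 2 and APP female 4, and at 36.3 to 39.3 in the long-named set. All 6 WT males lay with the high level (Dnah8 68.4 to 101, Glo1 66.8 to 74.8) and all 6 WT females with the low one (3.25 to 6.94 and 34.5 to 39.3). Neither gene was called (adjusted p = 0.0664 and 0.105), and each was when APP male 2 or APP female 4 was left out.

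The class II gene H2-Ea, which mice of the b haplotype of this complex do not express, was also split this way (named after its values were seen). It was at 13.4, 7.25 and 8.09 CPM in short-named males 1, 3 and 4 and at 25.3, 15.8 and 15.3 in short-named females 3, 5 and 6. It was listed at 0 in APP male 2 and in all 4 long-named libraries, and APP female 4 had 0.0838 CPM. In WT males it ranged from 1.96 to 7.11 CPM and in WT females from 0 to 0.0729. H2-Q2 was at 4.34 and 10.2 CPM in the 2 libraries against 20.8 to 71 in the other six, and H2-T9 at 10.8 and 15.7 against 29.9 to 79.9.

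A count of such genes was made after the split was seen. Leaving these 2 libraries aside, 6 genes of the window had the other 6 short-named libraries apart from the 4 long-named ones by at least 1 on the log2 scale, and in all 6 genes both APP male 2 and APP female 4 were nearer to the long-named mean. Among 13242 other placed genes, 19 were separated in this way and both libraries were nearer to the long-named mean in 1, Ccr6, on the same chromosome. Taken singly, APP male 2 was nearer to it in 1 of the 19 and APP female 4 in 2. All WT males were nearer to the mean of the other 6 short-named libraries in only 3 of the window's 6 genes. All WT females were nearer to the long-named mean in all 6 of them. In the 19 genes outside the window, these counts were 4 and 14. Other short-named libraries stood apart elsewhere: the heme synthesis gene Alad, whose copy number differs between inbred strains, was at 82.5 CPM in APP male 3 and at 27.6 to 38.3 in the other short-named libraries, against 30.2 to 36.2 in the long-named set and 57.1 to 84.1 in WT males. The list of 8 strain-variable genes that holds Glo1 and Alad gave 1 call, against 4.88% of all genes. It was Nnt, a mitochondrial transhydrogenase gene (-0.46, adjusted p = 0.022).

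**Figure D5:**
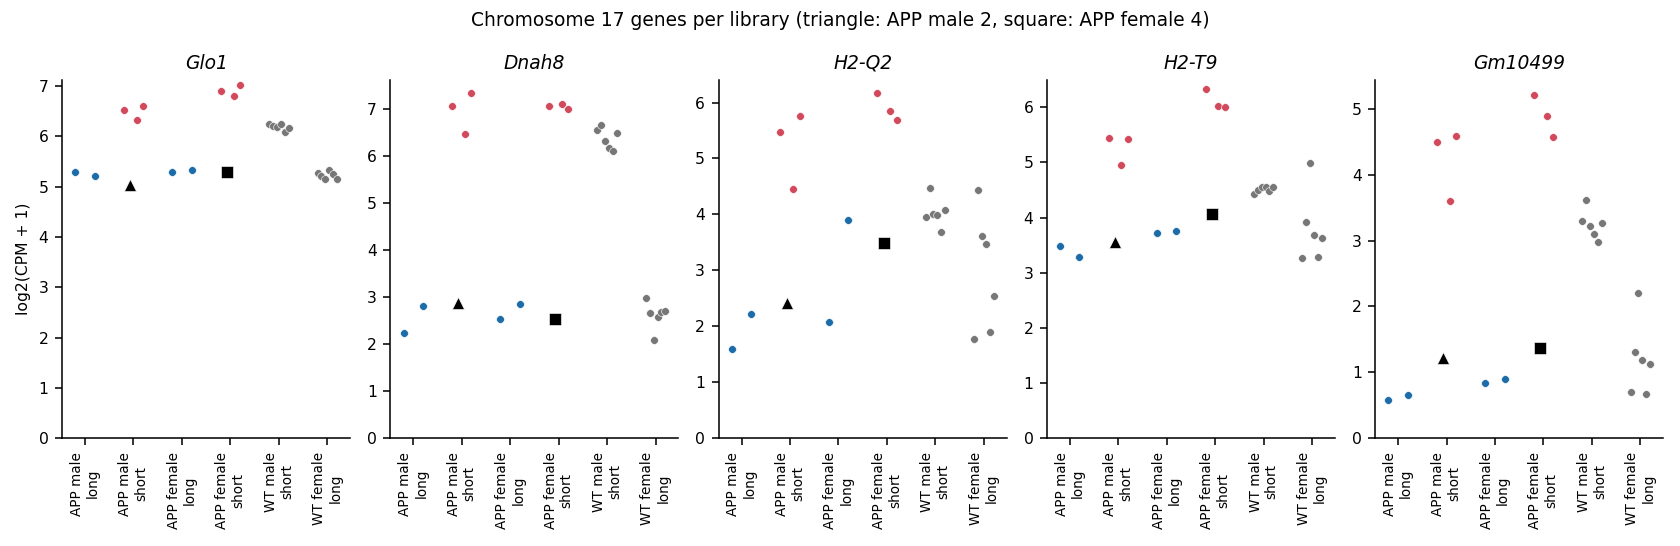
Each point is 1 library and the vertical axis is log2(CPM + 1); colours are as in the plot of single genes, with APP male 2 drawn as a black triangle and APP female 4 as a black square. Both stand at the level of the long-named libraries in Glo1 and Dnah8 and below the other six short-named libraries in the 3 MHC genes.

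WT libraries share no sample with this comparison. Between the WT sexes, which differ in name style too, 1274 genes (9.27%) were higher in females and 838 (6.1%) lower. Of 658 autosomal genes called between the APP name styles, 243 (36.9%) were also called there, against 15.5% of autosomal genes tested, and they made up 11.8% of the WT calls. In 235 of the 243 (96.7%) the sign was the same, with short-named WT males differing from long-named WT females as short-named APP libraries from long-named ones. Of the 93 large differences 47 were called in WT, 46 with that sign. Calr3, Pttg1, Manba and Ifi44l were among them, and Prkar2b, Acp1 and Sntg2 were not (WT differences of -0.07, -0.16 and 0.00).

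In many of these genes WT males did not reach the level of the short-named APP libraries. Of 69 genes with a large difference and no overlap in APP, the WT male median lay between the short-named and long-named APP medians in 61 (88.4%). The WT female median did so in 39 (56.5%). Over all tested genes the shares were 29.7% for WT males and 33.9% for WT females. A wide gap leaves more room for another value to fall inside it. The median of Pttg1 was 3.46 CPM in short-named APP mice and 28.7 in WT males, against 55.9 to 62.7 in the long-named APP libraries. Rps3a1 had 28.7 and 74.7 CPM, against 134 to 150, and Calr3 had 5.58 and 2.51 CPM, against 0.57 to 0.729. WT males and the short-named APP libraries share the name style and differ in genotype, and 4 of the 8 APP libraries are female.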

How the data were processed

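Brain vessel mRNA of 24 mice was sequenced from TruSeq libraries on a NextSeq 2000, per the labels' protocols. The authors deposited 1 table of CPM values per gene and library, with mm10 as the genome in the submitters' processing notes. How reads were aligned, counted and filtered is not stated there or in the labels. Values in all 24 columns were whole multiples of 1 step per library within 0.01 reads, and these multiples were taken as read counts. A separate check of the recovery passed for 2 columns only (APP males 2 and 4), so read totals, the floor of 3 reads and the edgeR and DESeq2 results rest on that step. Of 15346 rows, 1598 without values and 12 with 2 repeated symbols were left out; 13422 of the 13736 tested genes were placed with GENCODE M21 annotation and 314 were not.

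The main test was limma 3.58.1 (R 4.3.3) with an intensity trend on log2(CPM + 1), with sex and name style as terms and Benjamini-Hochberg adjustment over all genes. Males, females and the difference between them (females less males) came from a fit of 4 group means. The series describes separate mice, and the p-values refer to the variation among them. Counts recovered from the CPM were tested with edgeR 4.0.16 and DESeq2 1.42.0 as alternatives. Others were TMM scaling, a pseudocount of 0.25, a mean of at least 5 CPM, all 24 libraries, a score of brain cell or clock genes as a covariate, and each library left out. The statistics were tested on simulated data.

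Named genes were the 10 largest rises and falls among called genes of at least 1 CPM without numbered gene models, up to 5 genes in each of the 4 windows with the most large differences, up to 4 called genes of each list, the 5 smallest p for the difference between the sexes, genes of the transgene check and a list of strain-variable genes. Some genes that this rule names are not reported here. Mki67, Top2a, Cst7, Clec7a, Dnah8, H2-Ea, further clock genes and the cell type markers were named after their values were seen. The libraries compared, the gene lists and the tests were chosen with earlier results of these data known.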

Additional observations from a re-analysis of the deposited data

Results flagged for a closer look

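In groups of 4 or 6 libraries, 28 of 288 groups of a reported gene (9.72%) held 1 library far from the others. The rule's nominal rate is about 1 in 20 for independent, normally distributed values. Genes of the same library are not independent, so the share was not tested against chance. WT female 3 was far above the other WT females in 11 genes. They included Gbp2b (226 CPM, others 0.063 to 0.473), H2-T9 (30.8), B3gnt3 (62.7), Gm2163 (3.73), Glipr2 (39.1), Gm10499 (3.61), Lilrb4a (13), Lcn2 (191), Rsad2 (202) and, of the interferon-responsive genes, Bst2 (275). Nlrc5 stood at 372 CPM in the same library, against 50.9 to 111 in the other WT females.

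Among the short-named APP libraries, male 1 was apart in Hpgd (3.33 CPM, other short-named males 1.52 to 1.67), and male 3 in Adh1 (15.6, others 3.43 to 4.52) and Alad (82.5, others 27.6 to 30). Male 4 was apart in Elavl3 (0.334, others 0.176 to 0.188) and Gad1 (1.34, others 0.282 to 0.403). Female 3 was apart in Mrc2 (49.7, other short-named females 9.65 to 12.4) and B3gnt3 (6.4, others 4.9 to 5.03), female 5 in Rsad2 (51.2, others 76.5 to 80.7) and female 4 in Dnah8 (4.78, others 128 to 138).

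The remaining WT libraries apart from their groups were female 4 in AA465934 (7.96 CPM) and Tlcd2 (7.29), female 2 in Mrc2 (54.1), female 5 in Spata31f1b (4.1), female 1 in Tfrc (286) and female 6 in H2-Ea (0.0729, others 0). In WT males they were male 4 in Elavl3 (8.4) and male 3 in Tef (120).

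The difference between short-named and long-named libraries itself differed between the sexes by limma in 8 of the genes chosen by the naming rule; clock genes and cell type markers named after their values were seen are given with their lists. Females less males gave -1.24 for Efna2, 1.21 for Ddit4l (adjusted p = 0.0496), -1.79 for Sik1, 3.85 for Camkv, 3.22 for Elavl3, 2.76 for Ncald, 2.57 for Slc6a13 and -1.65 for Per2. Efna2 was higher in short-named libraries of both sexes, by 2.37 in males and 1.13 in females.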

How the results depend on the processing

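No paired analysis was possible because the short-named and long-named libraries of a sex share no replicate number. Genes higher and lower between the name styles numbered 241 and 430; edgeR gave 271 lower, TMM scaling 279 lower, DESeq2 693 higher, all 24 libraries 425 and 914, the brain cell score as a covariate 378 and 781, and the clock score 15 and 22. Settings added after seeing the data gave 29 and 44 without the 4 short-named males and 35 and 43 in females alone. In both, the difference comes from the females. In males, edgeR gave 701 and 680, TMM scaling 723 and 607, and DESeq2 1267 higher. In females, DESeq2 gave 296 and 185, and edgeR 43, the pseudocount of 0.25 51 and the minimum of 5 CPM 56 higher. For the difference between the sexes, DESeq2 gave 471 and 430, the minimum of 5 CPM 121 and 26, TMM scaling 82 lower and all 24 libraries 32 lower. DESeq2 gave 1457 lower genes between the WT sexes.

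Leaving out 1 library at a time gave 109 to 252 higher and 147 to 495 lower genes between the styles, with 113 and 159 without APP male 5 and 109 and 147 without APP male 6. The ranges were 61 to 498 and 70 to 1784 in males, 8 to 127 and 14 to 90 in females, 0 to 541 and 0 to 114 for the difference between the sexes, and 861 to 1259 and 563 to 929 between the WT sexes. A large difference set at 0.58 gave 41 windows with 3 or more, where 1 gave 8. Alad, at 0.05 and not called, changed sign with the clock score (-0.65), without APP male 3 (-0.13) or APP male 5 (-0.02), within a range of -0.13 to 0.11 over single libraries, and without the 4 short-named males (-0.11). The cause of these changes was not tested. Levels under 3 reads, 0.0395 to 0.0533 CPM in the APP libraries, were not detectable at this depth.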
